A study of Mus musculus with 4 samples.

Results

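The genes described here encode the zinc-dependent histone deacetylases (HDACs) outside class IIa: Hdac1, Hdac2, Hdac3 and Hdac8 of class I, Hdac6 and Hdac10 of class IIb, and Hdac11, the sole member of class IV. They were chosen by gene name, 7 of the 56350 genes of the deposited table of counts. All 7 had enough reads to be tested, along with 14448 others. RNA came from EO771, a mouse mammary carcinoma line of the C57BL/6 strain, grown in Dulbecco's medium with serum and antibiotics. In 2 libraries the cells had been exposed to BML-210, a small-molecule HDAC inhibitor, at 1.0 µM for 48 h. The other 2 libraries are labelled untreated, although the treatment description speaks of a vehicle and the titles of wild type. The labels do not say whether the 2 libraries of a group came from separate cultures, so p-values measure the spread between these libraries, which may be technical. Library codes carry the letter D in the untreated group and V in the BML-210 group. The labels were taken as given, no gene in these data checks them, and whether the groups were exchanged was not tested.

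HDACs remove acetyl groups from lysines. HDAC1, HDAC2 and HDAC3 have little activity alone and work as the catalytic subunits of nuclear corepressor complexes, HDAC1 and HDAC2 in Sin3, NuRD, CoREST and MiDAC, and HDAC3 in the NCoR complexes. HDAC8 acts without such a complex, and its best known substrate is the cohesin subunit SMC3. HDAC6 is mainly cytoplasmic and deacetylates tubulin, cortactin and the chaperone HSP90. HDAC10 deacetylates acetylated polyamines, and HDAC11 removes long fatty acyl groups from lysines, for example on the enzyme SHMT2. Inhibitors of this family act on the proteins. The measurements below are of the mRNAs.

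Hdac11 and Hdac6 fell in the libraries labelled BML-210, Hdac11 by 2.06-fold and Hdac6 by 1.5-fold, and Hdac1 fell slightly, by 1.12-fold. Hdac2, Hdac3, Hdac8 and Hdac10 did not pass the test. By class, 1 of 4 class I genes, 1 of 2 class IIb genes and the class IV gene were lower, 3 of 7 in all. By edgeR's quasi-likelihood test 0 of 7 were called higher. At an unadjusted p under 0.05 edgeR had 1 of 7 higher, Hdac10, and DESeq2 called 0 higher and 2 lower. A call is a Benjamini-Hochberg adjusted p below 0.05 over all tested genes. These counts stand against 23.5% of all tested genes called lower, 22.9% called higher and 46.4% in either direction, and 3 of 7 called in either direction lies near that background. Scaled counts of the 2 groups did not overlap for 71.3% of all tested genes, so such a gap, given below for single genes, is common. In bulk RNA, fewer cells of a type and less RNA per cell cannot be told apart.

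The promoters of the 2 genes that fell most are shown because they are the part of each gene where transcription starts, and both lie in the deposited build. RefSeq windows of 300 bases (250 before a start site and 50 after it, GRCm38.p6, the assembly of mm10) matched 4 of the 7 genes: Hdac2, Hdac6, Hdac8 and Hdac11. Hdac1, Hdac3 and Hdac10 had no entry. Printed here, on the strand of the gene and 5′ to 3′, are the bases of each window that lie upstream of every annotated start of that gene, with each GC box (GGGCGG) in capitals. The Hdac11 stretch is chr6:91156565-91156664 on the plus strand and the Hdac6 stretch is chrX:7948048-7948139 on the minus strand.
Hdac11: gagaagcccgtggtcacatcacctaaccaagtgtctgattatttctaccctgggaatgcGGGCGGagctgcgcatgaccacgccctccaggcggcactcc
Hdac6: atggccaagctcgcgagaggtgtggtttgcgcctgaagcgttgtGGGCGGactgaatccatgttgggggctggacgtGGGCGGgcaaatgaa

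Both promoters are rich in G and C, 66.7% over the whole Hdac11 window and 62% over that of Hdac6, with 22 and 20 CG pairs. Over the whole windows, searched on both strands, Hdac6 holds 5 GC boxes and 2 CCAAT boxes (CCAAT), and Hdac11 holds 1 of each. Of the 32851 promoter windows in the table, 35.7% hold a GC box, 37.4% a CCAAT box and 12.8% both. Of the genes that were not called, Hdac2 has 1 GC box and no CCAAT box in a window of 69.7% G and C, and Hdac8 has no GC box, 2 CCAAT boxes and a TATA box (TATAAA) in a window of 49.7% G and C. TATA boxes were found in 13.6% of all windows. No E-box (CACGTG), ETS site (CCGGAAG) or CRE core (TGACGT) was found in any of the 4 windows, and 7.15%, 8.86% and 7.51% of all windows hold one. These are matches of letters, not measured binding sites.

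Hdac11 (ENSMUSG00000034245.10, mm10 chromosome 6, 91156665 to 91174692, plus strand) had 203 and 130 reads in the untreated libraries and 78 and 67 in the libraries labelled BML-210. Scaled to library size in CPM, that is 12.4 and 9.47 against 5.90 and 4.78 CPM. Both untreated libraries lay above both others, and untreated replicate 1 was the highest of the 4. The group means were 10.9 ± 2.04 and 5.34 ± 0.794 CPM (SD, n = 2). On the log2 scale the change was -1.04 with an SE of 0.17 and a 95% interval of -1.38 to -0.71 (adjusted p = 5.08e-07, edgeR). A fall of at least 2-fold was called for 4.33% of tested genes. With 1 library left out, the log2 fold change lay between -1.21 and -0.83. At these counts the Poisson counting error alone is 7.02% to 12.2% of a library's value.

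Hdac11 has exons in common with a pair of antisense genes that held almost no reads. Gm44002 and Gm14573 overlap 594 and 96 of its 3849 exonic bases. Gm44002 had 0 and 0 reads in the untreated libraries and 4 and 1 in those labelled BML-210, and Gm14573 had at most 1 read in any library. All 594 exonic bases of Gm44002 lie within exons of Hdac11, 15.4% of its length. How reads over shared bases were counted is not stated, so these counts do not show whether the antisense genes are transcribed. Reads of Hdac11 over those bases may also have gone uncounted. The enzyme SHMT2, a substrate of HDAC11, has a gene that rose: Shmt2 went from 289 and 295 CPM to 414 and 420 CPM, a log2 fold change of 0.51. The N-myristoyltransferase gene Nmt1, whose product attaches a fatty acyl group to proteins, had a log2 fold change of -0.10 and was called lower (adjusted p = 0.0407, edgeR), and its relative Nmt2 was at 0.04 and was not called. The Nmt1 call ended without untreated replicate 2 (adjusted p = 0.108) and without BML-210 replicate 2 (0.545), and its exons overlap those of Dcakd.

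Hdac6 (ENSMUSG00000031161.15, chromosome X, 7930120 to 7947889, minus strand) had 277 and 256 reads against 163 and 158. The levels were 16.9 and 18.6 CPM in the untreated libraries and 12.3 and 11.3 CPM in those labelled BML-210. The groups did not overlap, as in 71.3% of all tested genes. The group means were 17.8 ± 1.26 and 11.8 ± 0.752 CPM (SD, n = 2). On the log2 scale the change was -0.59 with an SE of 0.12 and a 95% interval of -0.83 to -0.34 (adjusted p = 5.16e-05, edgeR). Without 1 library at a time it ranged from -0.66 to -0.52. No other gene has exons in common with Hdac6.

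Hdac10 (ENSMUSG00000062906.12, chromosome 15, 89123307 to 89128700, minus strand), the other class IIb gene, lay on the opposite side of zero. It had 110 and 71 reads against 107 and 103, which is 6.70 and 5.17 CPM against 8.10 and 7.35 CPM. The groups did not overlap, as was true of 71.3% of all tested genes. The log2 fold change of 0.37, with an SE of 0.17, did not pass (adjusted p = 0.0804, edgeR). Its 95% interval, before adjustment over genes, was 0.02 to 0.72. The value depended on which untreated library was kept. Without untreated replicate 1 the log2 fold change was 0.57 and edgeR's adjusted p was 0.0248, and without untreated replicate 2 they were 0.20 and 0.446. Hdac10 was called higher in 3 of 16 alternatives, the others being thinned counts and removal of the GC and length trend, with adjusted p-values between 0.0126 and 0.446 over all 16. The ratio of Hdac6 to Hdac10 per length, which no scaling of libraries can change, was 1.46 and 2.09 in the untreated libraries and 0.885 and 0.891 in those labelled BML-210. With 2 libraries against 2, an exact permutation test of such a ratio cannot go below a two-sided p of 0.333, so the ratios are given without a test.

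**Figure D1:**
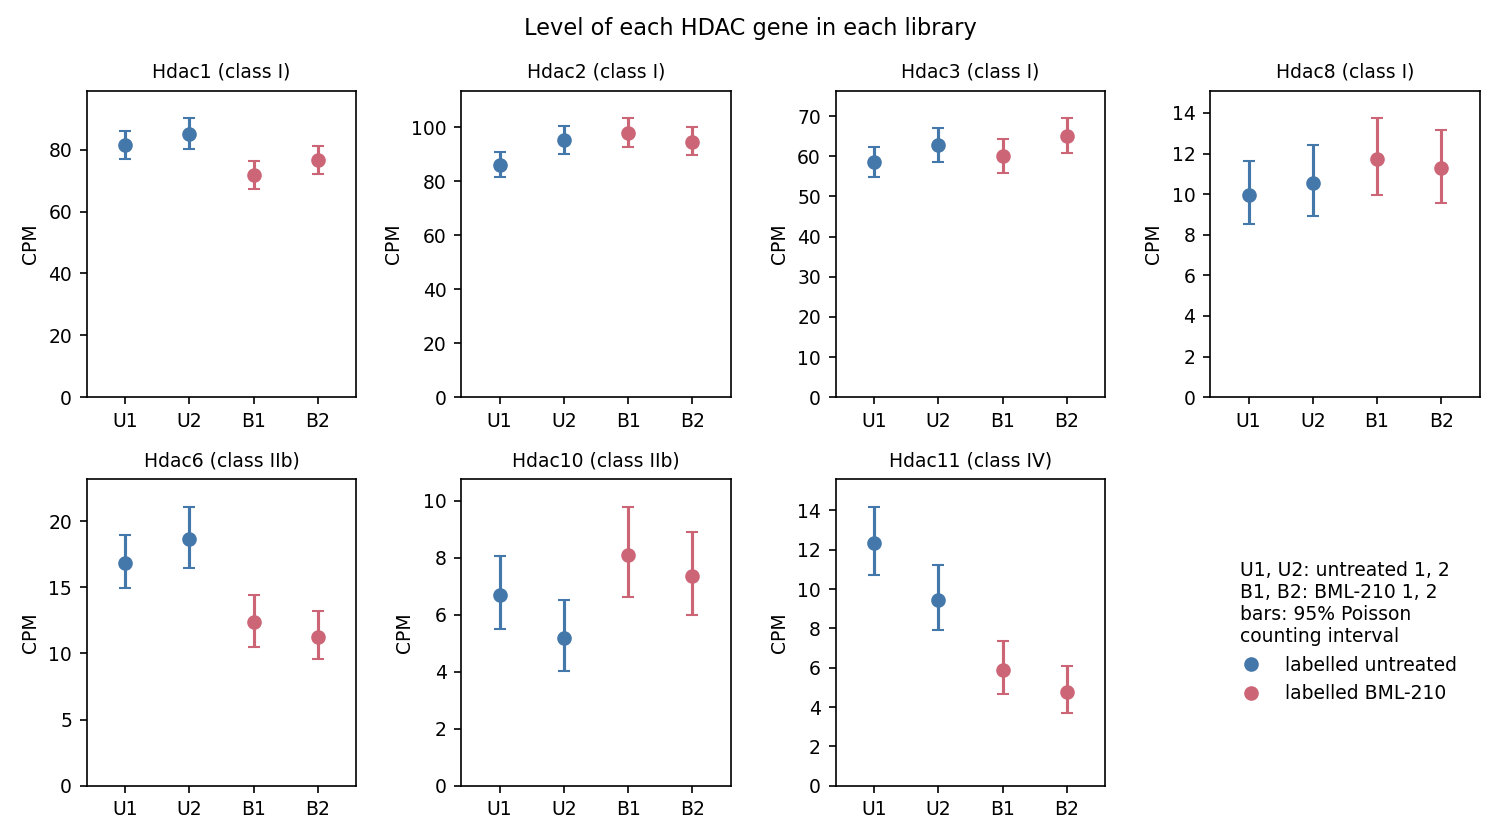
CPM (TMM-scaled) of the 7 genes in the 2 untreated libraries (U1, U2) and the 2 libraries labelled BML-210 (B1, B2), each axis from 0. Points are libraries and bars are 95% Poisson counting intervals. Hdac11 and Hdac6 sit lower in B1 and B2, while the intervals of Hdac3 and Hdac8 overlap between all 4 libraries.

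Among the class I genes, Hdac1 (ENSMUSG00000028800.15, chromosome 4, 129516104 to 129542713, minus strand) had 1338 and 1168 reads in the untreated libraries and 947 and 1072 in the others. That is 81.4 and 85.1 CPM against 71.7 and 76.5 CPM, without overlap. The change of -0.17 on the log2 scale, with an SE of 0.05, was the smallest of the 3 calls (adjusted p = 0.00851, edgeR). Leaving out either untreated replicate 2 (-0.14, adjusted p = 0.0805) or BML-210 replicate 1 (-0.12, adjusted p = 0.151) ended the call, and DESeq2 did not make it (0.125). Over 16 alternatives the adjusted p lay between 0.00184 and 0.151. A processed pseudogene of Hdac1, listed as Gm10093 on chromosome 17 and as Hdac1-ps in RefSeq, had 12 to 16 reads a library. The sources used here do not say to which copy a read that matches both was assigned.

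Hdac2 (ENSMUSG00000019777.16, chromosome 10, 36974544 to 37001889, plus strand), the closest relative of Hdac1, stood at 86.2 and 95.3 CPM in the untreated libraries and at 97.8 and 94.7 CPM in those labelled BML-210. The groups overlapped, and the log2 fold change of 0.09, with an SE of 0.05, did not pass (adjusted p = 0.154, edgeR). Its 95% interval runs from -0.01 to 0.19. It passed only without untreated replicate 2 (0.16, adjusted p = 0.0237), with adjusted p-values between 0.0237 and 0.907 over 16 alternatives. The ratio of Hdac1 to Hdac2 per length was 1.23 and 1.16 in the untreated libraries and 0.952 and 1.05 in the others. Per length, Hdac1 was therefore the more abundant of the pair in both untreated libraries and in 1 of the 2 libraries labelled BML-210. In CPM, without division by length, Hdac2 was the higher in every library. The order thus depends on the deposited exonic lengths, 3445 bases for Hdac1 and 4474 for Hdac2.

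Hdac3 (ENSMUSG00000024454.16, chromosome 18, 37935844 to 37955016, minus strand) was the least changed of the 7. Its 4 levels were 58.5 and 62.8 CPM untreated and 60.0 and 65.1 CPM with BML-210. On the log2 scale the difference was 0.05 with an SE of 0.06 and a 95% interval of -0.07 to 0.17 (adjusted p = 0.535, edgeR). It was -0.01 when untreated replicate 1 or BML-210 replicate 2 was left out, and it was called in none of 16 alternatives. The 3 genes within 5000 bases of it were called lower, against 23.5% of all tested genes. Rell2, which lies 62 bases from it, fell from 5.72 and 6.99 to 3.56 and 2.93 CPM, the formin gene Diaph1, 367 bases away, had a log2 fold change of -0.19, and Fchsd1 one of -0.47. None of them has exons in common with Hdac3. In the same window, Mapk12 (0.27) and Tubgcp6 (0.34) near Hdac10 were called higher, and Marcksl1 near Hdac1 was not called. The remaining genes in the windows of the members had too few reads to be tested.

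Hdac8 (ENSMUSG00000067567.12, chromosome X, 102284639 to 102505359, minus strand) had only 145 to 164 reads a library. Its levels were 9.98 and 10.6 CPM untreated and 11.7 and 11.3 CPM with BML-210. The groups did not overlap, yet the log2 fold change of 0.17, with an SE of 0.14, did not pass (adjusted p = 0.342, edgeR). The 95% interval of -0.11 to 0.44 holds zero. The smallest change of Hdac8 that could be called at this depth was not tested.

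**Figure D2:**
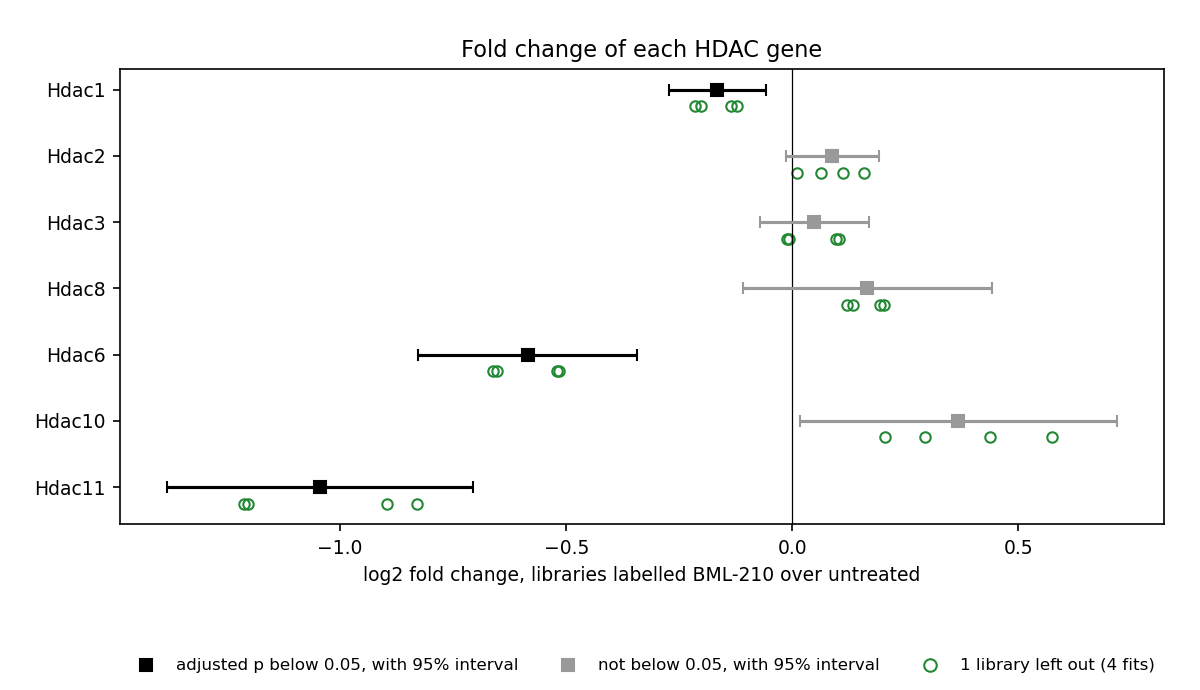
Log2 fold change of each gene, libraries labelled BML-210 over untreated (squares, with 95% intervals from edgeR's fit, before adjustment over genes), and the same value with 1 library left out (green circles, 4 fits a gene). Hdac11 and Hdac6 lie left of zero in all 5 fits, whereas the circles of Hdac3 lie on both sides of zero.

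The levels of the 7 genes fell into an abundant and a scarce set. Per length (CPM per kilobase of exon, RPKM, computed here from the deposited exonic lengths), Hdac1 stood at 24.2 ± 0.747 in the untreated libraries, Hdac2 at 20.3 ± 1.44 and Hdac3 at 15.0 ± 0.750 (SD, n = 2), with no overlap between neighbours in this order. The other genes were well below. Hdac6 stood at 3.05 ± 0.217 and Hdac11 at 2.83 ± 0.530, and these 2 overlapped. Hdac8 followed at 2.12 ± 0.0848 and Hdac10 at 1.76 ± 0.319, each below its neighbour in both libraries.

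In the libraries labelled BML-210 the same 3 genes led, and the order of the scarce genes was different. Hdac1 and Hdac2 overlapped there, both with a mean of 21.5, and Hdac3 stood at 15.4 ± 0.881 RPKM. Hdac8 at 2.38 ± 0.0669 and Hdac10 at 2.29 ± 0.157 overlapped, Hdac6 came next at 2.03 ± 0.129, and Hdac11 was lowest at 1.39 ± 0.206 (SD, n = 2). The ratio of Hdac11 to Hdac8 per length went from 1.56 and 1.13 to 0.633 and 0.533. Among all tested genes, the 3 abundant ones lay at percentiles 78.6 to 86.5 of the per-length level and the 4 scarce ones at 29.9 to 34.5.

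Summed over the 7 genes, the per-length level was 67.5 and 70.9 RPKM in the untreated libraries and 66.0 and 67.1 RPKM in those labelled BML-210. The class I genes made up 88.0% and 89.8% of this sum untreated and 90.8% and 92.0% with BML-210. The share of Hdac11 was 4.76% and 3.47% untreated and 2.33% and 1.85% with BML-210, and that of the class IIb genes together was 7.23% and 6.68% against 6.85% and 6.13%. The class IIa genes, for comparison, gave 1 lower (Hdac5, log2 fold change -0.58), 1 higher (Hdac7, 0.13) and 1 that was not called (Hdac4, 0.08). Hdac9 had 0 to 8 reads a library and was not tested. The Hdac7 call ended when untreated replicate 1 (adjusted p = 0.2) or BML-210 replicate 1 (0.202) was left out, and exons of Hdac7 overlap those of Slc48a1, which has more reads.

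**Figure D3:**
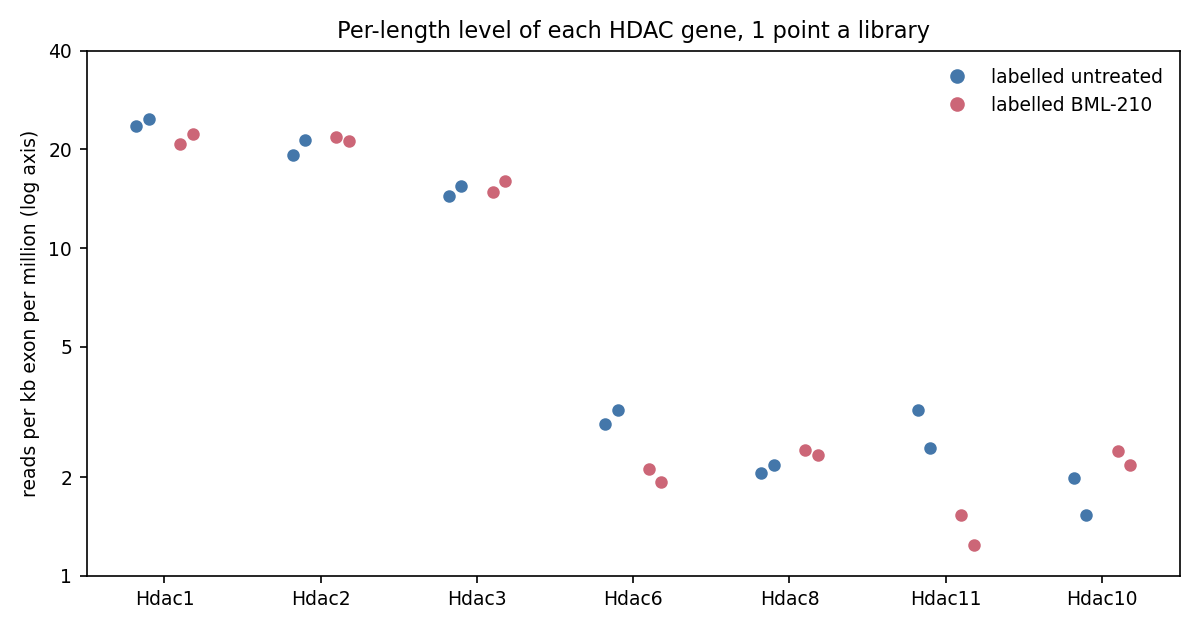
RPKM of the 7 genes on a log axis, 1 point a library, ordered by the mean over the 4 libraries. Hdac1, Hdac2 and Hdac3 lie between 14.4 and 24.7, the other 4 genes between 1.24 and 3.21.

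Genes with the profile most like that of a called HDAC gene were sought by the distance between mean-centred log2(CPM + 1) values over the 4 libraries, among 9479 named genes with a mean of at least 5 CPM. Nearest to Hdac11 were Gls2, a mitochondrial glutaminase gene (15.4 and 11.2 against 7.57 and 6.57 CPM, distance 0.117), and Tmem74 (8.64 and 7.50 against 4.24 and 3.42 CPM, distance 0.121). Hdac6 was closest to Sesn1, a stress-induced sestrin gene (10.2 and 11.5 against 7.42 and 6.85 CPM, distance 0.0199), and to the tropomyosin gene Tpm2 (50.4 and 56.8 against 37.4 and 34.5 CPM, distance 0.0265). For Hdac1 they were Dtx4 (distance 0.00615) and Ufsp2 (0.011), with log2 fold changes of -0.17 each. With 4 libraries in 2 groups such distances mainly reflect the size of the difference between the groups, and they are a description only. Exons of Gls2 and of Ufsp2 overlap those of another gene.

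Around the class I enzymes, most genes of the complexes that carry HDAC1, HDAC2 and HDAC3 were higher or not called. Of 36 tested genes of these complexes, 20 were higher, 3 lower and 13 not called, with a median log2 fold change of 0.16 against -0.002 over all tested genes. That is 55.6% higher and 8.33% lower, against 22.9% and 23.5% of all tested genes. The NuRD complex, which joins deacetylation to nucleosome remodelling, had 10 of 11 genes higher, among them the remodeller Chd3 (92.5 and 92.5 against 137 and 148 CPM, log2 fold change 0.62) and Mta1 (0.30). Its other remodeller, Chd4, was at -0.07 and was not called. For the NCoR complexes, which hold HDAC3, 4 of 5 genes were higher, including Ncor1 (269 and 280 against 354 and 351 CPM, log2 fold change 0.36) and Tbl1x (0.33).

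Sin3 and CoREST genes were more mixed. Of 11 tested Sin3 genes 3 were higher, 1 lower and 7 not called, against 22.9% higher and 23.5% lower over all tested genes. Rbbp4 (log2 fold change 0.28) and Rbbp7 (0.30), whose products Sin3 shares with NuRD, were called higher and were counted under NuRD alone. The contrast between these complexes therefore depends in part on where shared subunits were placed. The scaffold Sin3a stood at 0.01. Of 7 CoREST genes 2 were higher and 2 lower, both near those shares. Rcor2 (0.36) and Phf21a (0.23) rose, and the scaffold Rcor1 (104 and 107 against 88.9 and 85.5 CPM, -0.27) and Hmg20b (-0.49) fell. In MiDAC, 1 of 2 genes was higher. The number of lower genes over these complexes is the less certain one. It was 6 in place of 3 with upper-quartile scaling factors. With a filter at a mean of 1 CPM, or with the replicate number in the fit, it was 5. The number of higher genes moved too, from 20 to 16 with upper-quartile factors and to 17 with no filter on low counts. Reads of Ncor1 and Rcor1 may be shared with genes whose exons overlap theirs.

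The genes of cohesin, the ring complex whose subunit SMC3 is deacetylated by HDAC8, and of its regulators were higher throughout. In this list 13 of 13 genes were called higher, against 22.9% of all tested genes, with a median log2 fold change of 0.31. Not every one of these calls was kept without untreated replicate 1. Smc3 itself rose from 101.5 and 101.2 CPM to 123 and 131 CPM (log2 fold change 0.33). The cohesin-associated genes Pds5b (0.49) and Pds5a (0.31), the subunits Stag1 (0.52) and Rad21 (0.35) and the SMC3 acetyltransferase Esco2, from 18.3 and 14.6 to 24.1 and 27.8 CPM (0.65), rose with it. Hdac8 itself, with its log2 fold change of 0.17, was not called.

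The partners and substrates of HDAC6 were lower in 7 of 14 tested cases, higher in 2 and not called in 5, with a median log2 fold change of -0.05. The lower genes are 50% of the list and the higher ones 14.3%, against 23.5% and 22.9% of all tested genes. Cortactin (Cttn), an actin-binding substrate, fell from 128.1 and 128.3 CPM to 91.8 and 90.2 CPM (log2 fold change -0.49). The peroxiredoxin gene Prdx1 (-0.50) and the chaperone gene Hsp90ab1 (-0.18) fell too. Against the others, the dynein light chain gene Dynll1 (0.34) and the microtubule end-binding gene Mapre1 (0.12) rose, the latter not without BML-210 replicate 2 (0.10, adjusted p = 0.128, edgeR). Atat1, the acetyltransferase that acts on the same tubulin lysine as HDAC6, stood at 5.36 and 5.61 CPM untreated and at 4.54 and 6.35 CPM with BML-210. Its groups overlapped, and its log2 fold change was -0.002 with an SE of 0.197.

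Polyamine genes, the setting of HDAC10, were lower in 7 of 15 tested cases, higher in 4 and not called in 4, with a median log2 fold change of -0.36. The lower genes are 46.7% of the list, against 23.5% of all tested genes, and the higher ones are 26.7%, near the 22.9% of all tested genes. Lower were the catabolic genes Sat1, which acetylates spermidine and spermine (43.0 and 40.9 against 24.3 and 22.7 CPM, log2 fold change -0.84), and Smox, the spermine oxidase gene (-0.55). The polyamine transporter gene Atp13a3 (-0.50) and the antizyme inhibitor gene Azin2 (10.2 and 13.3 against 4.16 and 4.50 CPM, -1.43) fell as well. The other antizyme inhibitor gene, Azin1, was more abundant and was called higher (235 and 229 against 265 and 260 CPM, 0.18). The synthesis genes Srm (0.29) and Amd1 (0.295) rose, while Odc1, the ornithine decarboxylase gene, was at 0.03 and was not called.

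Of 10 histone acetyltransferase genes, whose products oppose the HDACs, 7 were higher and 0 lower, against 22.9% and 23.5% of all tested genes, with a median log2 fold change of 0.25. They include Crebbp (255 and 243 against 335 and 338 CPM, log2 fold change 0.43), Kat6a (0.39), Kat2a (0.36) and Kat6b (0.36). Ep300, the close relative of Crebbp, was at -0.04 and was not called. Among 11 tested genes of proteins that read acetylated lysine, 3 were higher, Brd3 (0.30), Brd8 (0.23) and Yeats2 (0.23), and 2 lower, Baz2a (-0.28) and Mllt3 (-0.23). These 5 are 45.5% of the list, near the 46.4% called over all tested genes. Of the 7 sirtuins, deacetylases that use NAD and not zinc, 1 was higher, Sirt1 (50.3 and 47.3 against 71.8 and 71.1 CPM, log2 fold change 0.55), and 3 were lower, Sirt7 (-0.82), Sirt2 (-0.32) and Sirt4 (-0.77). That is 57.1% called, against 46.4% over all tested genes. Exons of Sirt1, Sirt2 and Sirt7 overlap those of other genes, and Mafg, which overlaps Sirt7, has more reads than it.

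**Figure D4:**
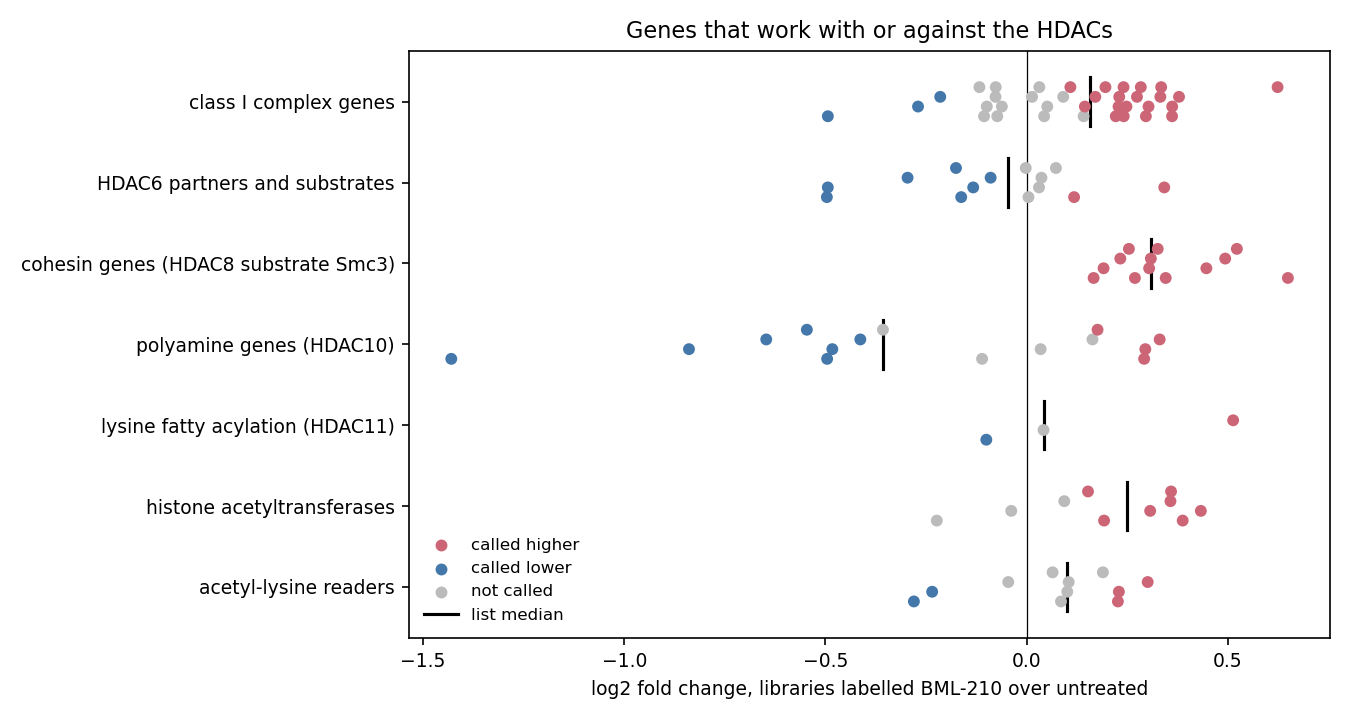
Log2 fold change (libraries labelled BML-210 over untreated) of each tested gene of 7 lists of HDAC partners, substrates and opposing enzymes, 1 point a gene, red for called higher, blue for called lower and grey for not called, with a black line at the list median. All 13 genes of the cohesin list lie right of zero, and the genes of the polyamine list lie on both sides.

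The libraries hold 16534667 and 13855061 gene counts (untreated) and 13167893 and 13961743 (BML-210). Of 8 epithelial markers, 7 were under 1 CPM in every library, and the keratin gene Krt8 fell from 43.6 and 49.2 CPM to 28.3 and 33.0 CPM (log2 fold change -0.59, adjusted p = 3.5e-09, edgeR), as far as Hdac6. Of 6 mesenchymal markers, 4 were tested, 2 were higher (Zeb1, log2 fold change 0.20, and Zeb2, 0.59) and 2 were not called (Vim and Twist1). Vim was at 1645 to 1721 CPM, whereas Cdh2 and Fn1 had 0 to 2 reads a library. Of 12 markers of macrophages and leukocytes, 5 were tested, 2 were lower (Cd68 and Adgre1) and 3 were not called (Ptprc, Lyz2 and Cd14). The list summed to 169 and 173 CPM untreated against 37.4 and 35.5 CPM with BML-210. Nearly all of that was Cd68, a lysosomal membrane gene that other cells express too, at 159 and 165 against 32.1 and 30.0 CPM, and the other 11 markers summed to 9.62 and 7.58 CPM untreated and 5.30 and 5.49 CPM with BML-210. C1qc was at 0 in every library and the leukocyte gene Ptprc at 0.437 to 0.974 CPM.

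Noncoding RNAs listed to gauge RNA quality also differed. The sum of these 6 RNAs was 75150 and 83910 CPM untreated and 54660 and 58710 CPM with BML-210. Most of the sum was Gm26917, at 55570 and 64680 against 40300 and 44330 CPM, which was not called (adjusted p = 0.0741, edgeR). Whether its reads come from a nuclear RNA was not tested. Malat1 fell (16930 and 16570 against 11220 and 11220 CPM), whereas Neat1 (log2 fold change 0.18), Snhg1 (0.27) and Kcnq1ot1 (0.78) rose. Of 9 mitochondrial RNAs 5 were higher, among them mt-Cytb (0.58) and mt-Nd1 (0.43), and 1 lower, mt-Co1 (-0.09), and their sum was 52940 and 49440 CPM untreated and 53810 and 52160 CPM with BML-210. The part of these differences in the values of the HDAC genes was not tested.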

How the data were processed

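Total RNA of 4 EO771 libraries was extracted with TRIzol and miRNeasy, made into KAPA RNA HyperPrep libraries and sequenced paired-end, per the labels' protocols. The authors deposited whole read counts per gene without normalisation, with exon coordinates and exonic length per the file headers. Per the submitters' processing notes, STAR 2.5, featureCounts (Subread 1.5.1), edgeR 3.20.8 and mm10 were used. The sources used here do not state settings for strand or multi-mapping reads.

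All genes of the table were fitted with edgeR 4.0.16 under R 4.3.3 (filterByExpr, TMM, glmQLFit with robust=TRUE, glmQLFTest, group alone, Benjamini-Hochberg over 14455 tested genes). SE is the absolute log2 fold change over the square root of F. CPM use TMM-scaled library sizes. Poisson intervals cover counting error only, since reads carry no molecular identifiers. Replicates were checked first: their chi-square per degree of freedom was 2.7 (untreated) and 1.76 (BML-210), more than sampling noise gives. The common coefficient of variation between replicates in edgeR's fit was 2.49%. Whether that spread is biological or technical was not tested. The steps were also run on simulated data in which far fewer genes changed than were called here. That run does not give the error rate in these data.

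The members and lists were chosen with earlier results of these data known, and the split of the class I list by complex was made after its values were seen. Genes were named by a rule: all 7 HDAC genes, per list up to 4 genes with the smallest adjusted p and up to 2 called against most of it, genes that share exons with a member, and the 2 most alike genes per called member. Named outside it, after their values were seen, are Gm10093, Slc48a1, Dcakd, Chd4, Sin3a, Smc3, Esco2, Atat1, Odc1, Ep300, Mafg, Rell2, Diaph1, Fchsd1 and the marker and RNA quality genes. So are Marcksl1, Mapk12, Tubgcp6, Rcor2, Phf21a, Rbbp4, Rbbp7 and Azin1. Of 53 genes under the rule, 15 have an exon that overlaps another gene. Alternatives were other scaling factors, filters and tests (DESeq2 1.42.0, limma-voom with limma 3.58.1, edgeR's likelihood ratio test), thinning to equal depth, 4 abundant genes left out, each library left out, the replicate number as a block, and removal of a GC and length trend with GC from the longest GENCODE M21 transcript.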

Additional observations from a re-analysis of the deposited data

How the results depend on the processing

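Over 16 alternatives, Hdac6 and Hdac11 were called lower in every one (log2 fold change -0.66 to -0.49 and -1.21 to -0.83), Hdac1 in 12, and Hdac3 and Hdac8 in none. Besides the fits without a library, the Hdac1 call ended with DESeq2 (adjusted p = 0.125) and once the trend on GC and length was removed (-0.10, 0.135). The number of HDAC genes called higher was 0 to 1 with 1 library left out and 1 with thinned counts (Hdac10, 0.0395) or without the GC and length trend (Hdac10, 0.0126). Over the whole table DESeq2 called 2205 genes higher and 2130 lower, against 3312 and 3402.

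Among the lists, with upper-quartile factors the class I complexes had 6 genes lower, the HDAC6 list 1 higher and the class IIa genes 0 higher. The complexes had 5 lower when a mean of 1 CPM was required. By DESeq2, 1 gene of the HDAC6 list and 0 class IIa genes were higher, and 1 acetyl-lysine reader was lower. Without the GC and length trend, 6 readers (3 before), 2 class IIa genes (1 before) and 2 sirtuins (1 before) were higher. Nmt1, the 1 gene called lower in the HDAC11 list, was lost (0 lower) with library size only, with no filter, with DESeq2, with the likelihood ratio test and with the trend removed. With 1 library left out, the HDAC6 list had 1 to 3 genes higher, the class IIa genes 0 to 1 higher and the HDAC11 list 0 to 1 lower. The cause was not tested. The lone library of a group is there assumed to vary like the other group.

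With the replicate block, 3385 genes were higher and 3462 lower, the class I complexes had 5 lower, and no HDAC call changed. Deviations of same-numbered libraries correlated at 0.00902 over genes, so no shift common to them was seen. That value cannot show whether they shared a culture or a preparation. Depth limits Hdac8, Hdac10 and Hdac11, with 67 to 203 reads a library. The genes that share exons with Hdac11 had too few reads to be tested.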
